A study of Mus musculus with 12 samples.

Results

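Deferoxamine-treated XY gonadal cells were set against untreated XX cells from the same kind of culture, to ask how far XY cells whose Sry had been lowered by iron chelation resemble XX cells. The comparison covers 3 Dfo XY and 2 control XX libraries out of 12 RNA-seq libraries, and 13847 of the 24411 gene symbols listed, those with at least 1 TPM (a gene's length-corrected share of a library's transcripts) in at least 2 of the 5 libraries. These 13847 genes, kept by that rule alone, are all the genes tested below. Every library came from NR5A1(+) cells of mice of the Nr5a1-hCD271 genotype, in which, as the name gives it, the human cell-surface protein CD271 is a tag under the control of Nr5a1, so the cells collected are those in which Nr5a1 is active. Dfo XY tissue (E10.8 gonads left attached to aorta, mesonephros and mesenchyme) was kept on a filter membrane for 19.2 h in DMEM containing 10% horse serum and 150 µM Dfo, the iron chelator deferoxamine. Control XX and control XY (n = 3) tissue had the same culture without Dfo. The other 4 libraries, labelled WT, are from uncultured E11.5 gonads with the same tag, 2 of them XY and 2 XX. XX tissue with Dfo is not among the groups, so the effect of Dfo and the effect of the sex chromosomes cannot be told apart in this comparison, and control XY libraries are given beside it. Nothing in the labels says that replicates came from separate embryos, so the p-values below measure only how far these libraries spread.

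The gonad begins as a bipotential tissue that can become testis or ovary. In XY supporting cells, brief expression of the Y-linked factor SRY switches on Sox9, and SOX9 with FGF9 drives the testis programme. Without it, WNT4 and RSPO1 stabilise beta-catenin and drive the ovarian programme, and each pathway represses the other. Expression of Sry needs removal of a repressive histone methylation mark by the demethylase KDM3A, one of a large family of oxygenases that hold iron in their active site. Iron chelation also blocks the iron-dependent prolyl hydroxylases that mark HIF proteins for destruction, which switches on the genes of the response to low oxygen.

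The libraries differed in ways that bear on all results. The RNase P RNA Rpph1 took 23.6%, 23.2% and 19.5% of all TPM in Dfo XY but 7.20% and 6.96% in control XX, and since TPM is a share, other genes are listed lower where Rpph1 takes more. The median log2 difference of all genes was -0.41 for Dfo XY minus control XX with the values as deposited, 0.03 after median-of-ratios scaling, -0.03 after quantile normalization and -0.18 with Rpph1 left out. A gene is therefore said below to hold under all 4 scalings when it was called in the same direction under each of them. Dfo XY replicates 1 and 2 went against their label in 1 respect. Xist, the RNA that silences an X chromosome in XX cells, had 13.6, 24.6 and 0.280 TPM in Dfo XY replicates 1, 2 and 3, beside 166 and 175 TPM in control XX and at most 0.18 TPM in control XY. Replicates 1 and 2 thus had 7.97% and 14.4% of the XX level and replicate 3 had 0.164%, while Ddx3y, on the Y chromosome, had 33.9, 30.01 and 41.5 TPM in the 3 libraries. Whether these libraries hold RNA from XX cells was not tested, and counts without both are given where they differ much. The depth of the libraries is unknown, and 16147 to 18041 symbols were above 0 in Dfo XY against 14578 and 14949 in control XX.

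Differences were tested with limma on log2(TPM + 1) with Benjamini-Hochberg adjustment over the 13847 genes, and genes with an adjusted p below 0.05 count as called. Log2 differences are given as Dfo XY minus control XX unless stated, with the standard error. Between Dfo XY and control XX, 804 genes were called higher (5.81%) and 5664 lower (40.9%), of which 514 and 1379 differed at least 2-fold. Scaling moved this balance: median-of-ratios scaling gave 1862 higher and 1489 lower genes, quantile normalization 1478 and 1672, and leaving out Rpph1 1186 and 3196. Under all 4 scalings 713 genes (5.15%) were higher and 1462 (10.6%) lower. Without both Dfo XY libraries that held Xist, 383 genes were higher and 2754 lower. The same fit called 427 genes higher (3.08%) and 3756 lower (27.1%) in control XY than in control XX, 208 (1.50%) and 288 (2.08%) under all 4 scalings. Between Dfo XY and control XY it called 841 higher (6.07%) and 1808 lower (13.1%), 838 (6.05%) and 960 (6.93%) under all 4 scalings, and its 2649 calls as deposited became 941 without both Xist-holding libraries. The comparisons of Dfo XY and of control XY with XX share the control XX libraries, so the test of their difference is Dfo XY against control XY.

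**Figure D1:**
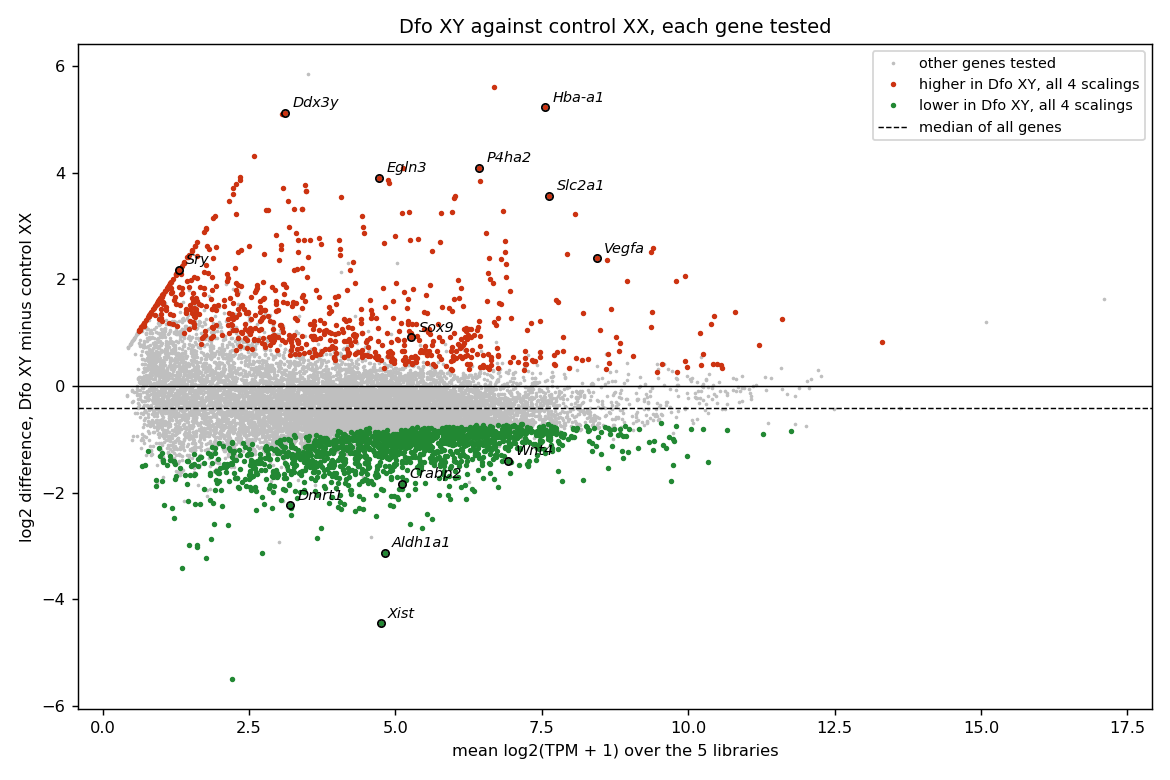
Log2 difference of Dfo XY minus control XX (vertical axis) against the mean log2(TPM + 1) of the 5 libraries (horizontal axis) for the 13847 genes tested, with the 713 higher and 1462 lower genes that held under all 4 scalings in colour. The bulk of genes lies around the dashed median of -0.41, and genes that respond to low oxygen, with the globins, stand far above it.

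The sex-determining gene Sry (chromosome Y, 2662471 to 2663658, mm10) was much reduced but still present in Dfo XY. It had 4.23, 2.40 and 4.18 TPM in the 3 Dfo XY libraries, 19.5, 16.4 and 45.6 TPM in control XY, and was listed at 0 in both control XX libraries. Every Dfo XY library lay below every control XY library, a difference of -2.50 ± 0.33 on the log2 scale (limma, adjusted p = 0.000278), and above both XX libraries, for which no fold is given. In bulk samples such as these, fewer cells expressing a gene and less RNA per cell cannot be told apart.

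Sox9 (chromosome 11, 112782224 to 112787760), the factor that SRY switches on, was above the XX level with and without Dfo. Its values were 53.4, 50.4 and 43.3 TPM in Dfo XY, 66.3, 68.1 and 46.8 TPM in control XY and 25.96 and 24.8 TPM in control XX. The Dfo XY libraries overlapped those of control XY and lay above both XX libraries. Sox9 was 1.89-fold higher in Dfo XY than in XX, a log2 difference of 0.92 ± 0.16 (limma, adjusted p = 0.000712), beside 1.20 ± 0.16 for control XY (limma, adjusted p = 0.000663). Dfo XY differed from control XY by -0.28 ± 0.14, with a 95% interval of -0.59 to 0.03 (limma, adjusted p = 0.194). This difference was called without control XY replicate 3, the library with the lowest Sox9 of its group (-0.45; limma, adjusted p = 0.0303).

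Of 22 testis pathway genes tested, 3 were higher and 8 lower in Dfo XY than in XX, and 3 and 4 held under all 4 scalings. The lower count is near the 40.9% of all genes, and the list median of -0.46 is near the -0.41 of all genes. The higher genes were Sry, Sox9 and Etv5, an FGF-responsive transcription factor, and the last was picked out after its values were seen. Without both Xist-holding libraries 2 were higher and 6 lower. Relative to all genes, the list median was 0.53 for control XY minus XX, -0.06 for Dfo XY minus XX and -0.40 for Dfo XY minus control XY. Between Dfo XY and control XY 7 of the 22 were lower and 0 higher, beside 13.1% and 6.07% of all genes. Under all 4 scalings 3 were lower and 0 higher, beside 6.93% and 6.05%. Dmrt1, a factor that later maintains male fate in testis cells, had 2.79, 4.42 and 4.93 TPM in Dfo XY, 6.96, 10.9 and 12.2 TPM in control XY and 20.6 and 24.4 TPM in XX. The 3 groups did not overlap, with XX highest, and Dfo XY was 4.73-fold below XX (log2 -2.24 ± 0.25; limma, adjusted p = 3.42e-05). Gadd45g, which acts upstream of Sry through p38 kinase signalling, showed the same order, with 66.9, 85.4 and 80.1 TPM in Dfo XY, 115.1, 106 and 136 TPM in control XY and 207 and 177 TPM in XX (Dfo XY minus XX, log2 -1.30 ± 0.14). For both genes the difference between Dfo XY and control XY was called (-1.12 and -0.61), but not without both Xist-holding libraries (-0.86, limma, adjusted p = 0.122, and -0.56, limma, adjusted p = 0.0843). Fgf9, the growth factor that sustains Sox9, had 1.79, 1.64 and 1.44 TPM in Dfo XY and 2.04 and 2.65 TPM in XX and was not called (log2 -0.35 ± 0.31, 95% interval -1.02 to 0.32; limma, adjusted p = 0.375). Amh, the hormone of differentiated Sertoli cells, did not reach the level needed for testing, with 0.980, 0.290 and 0.230 TPM in Dfo XY and 0 in both XX libraries.

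The ovarian genes of Dfo XY cells were not at the XX level either. Of 21 genes of the ovarian and WNT pathway, 12 were lower in Dfo XY than in XX and 1 higher, beside 40.9% and 5.81% of all genes. Under all 4 scalings 9 and 1 held, beside 10.6% and 5.15%. Against control XY, 6 of the 21 were lower in Dfo XY, 4 under all 4 scalings, beside 13.1% and 6.93% of all genes. Without both Dfo XY libraries that held Xist, 12 were lower than in XX and 0 higher. The median of the list was -0.93, beside -0.41 for all genes. The 1 higher member, named after its values were seen, was the WNT receptor gene Fzd1 (0.49; limma, adjusted p = 0.0413). Its call was also lost on leaving out control XY replicate 1, Dfo XY replicate 1 or 2, control XX replicate 1 or either E11.5 XX replicate.

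Wnt4 (chromosome 4, 137277489 to 137299726), the ligand that antagonises the testis programme, had 83.8, 91.8 and 70.5 TPM in Dfo XY, 85.1, 83.6 and 92.8 TPM in control XY and 220.3 and 214 TPM in XX. Both XY groups overlapped each other and lay far below XX. Wnt4 was 2.64-fold lower in Dfo XY than in XX (log2 -1.40 ± 0.13; limma, adjusted p = 9.59e-06). Dfo XY minus control XY was -0.09, with a 95% interval of -0.34 to 0.15 (limma, adjusted p = 0.602), and its sign changed with the scaling.

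Rspo1 (chromosome 4, 124986430 to 125009099), the secreted enhancer of WNT signalling, was lowest in Dfo XY. It had 26.8, 28.8 and 25.5 TPM there, 61.3, 53.6 and 65.7 TPM in control XY and 83.7 and 71.1 TPM in XX. The Dfo XY libraries did not reach the other groups, while control XY stood just below XX. Dfo XY was 2.79-fold below XX (log2 -1.48 ± 0.13; limma, adjusted p = 7.28e-06). Control XY minus XX was -0.36 ± 0.13 (limma, adjusted p = 0.0534, not called), and Dfo XY minus control XY was -1.12 ± 0.12 (limma, adjusted p = 3.79e-05).

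Lef1 (chromosome 3, 131110471 to 131224356), a transcription factor and target of beta-catenin, followed the same order, with 34.5, 37.2 and 36.2 TPM in Dfo XY, 49.99, 48.3 and 55.8 TPM in control XY and 103 and 91.5 TPM in XX. No group overlapped another, and Dfo XY was 2.66-fold below XX (log2 -1.41 ± 0.11; limma, adjusted p = 2.95e-06). The beta-catenin target Axin2 (-1.12), the KIT ligand gene Kitl (-1.41) and the granulosa-lineage factor Runx1 (-1.08) were also lower than in XX under all 4 scalings. Lef1 (-0.50) and Kitl (-0.51) were lower in Dfo XY than in control XY under all 4 scalings, and Axin2 as deposited (-0.39). The Lef1 difference from control XY was no longer called without both Xist-holding libraries (-0.49; limma, adjusted p = 0.0705).

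Fst, a follistatin that marks early ovarian supporting cells, had 14.6, 17.4 and 26.8 TPM in Dfo XY, 16.7, 19.2 and 25.6 TPM in control XY and 39.4 and 40.5 TPM in XX. Both XY groups overlapped below XX. Fst was called lower as deposited (log2 -1.03 ± 0.24; limma, adjusted p = 0.00403) but not after median-of-ratios scaling (log2 -0.57; limma, adjusted p = 0.0633) or without both Xist-holding libraries (-0.56; limma, adjusted p = 0.160). Foxl2, the transcription factor of granulosa cells, was low in every cultured group. It had 0.440, 1.18 and 2.47 TPM in Dfo XY and 3.05 and 3.43 TPM in XX (log2 -0.93 ± 0.50, 95% interval -2.02 to 0.15; limma, adjusted p = 0.143). This difference was called on leaving out E11.5 XY replicate 1 or 2 (limma, adjusted p = 0.0442 and 0.0471).

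**Figure D2:**
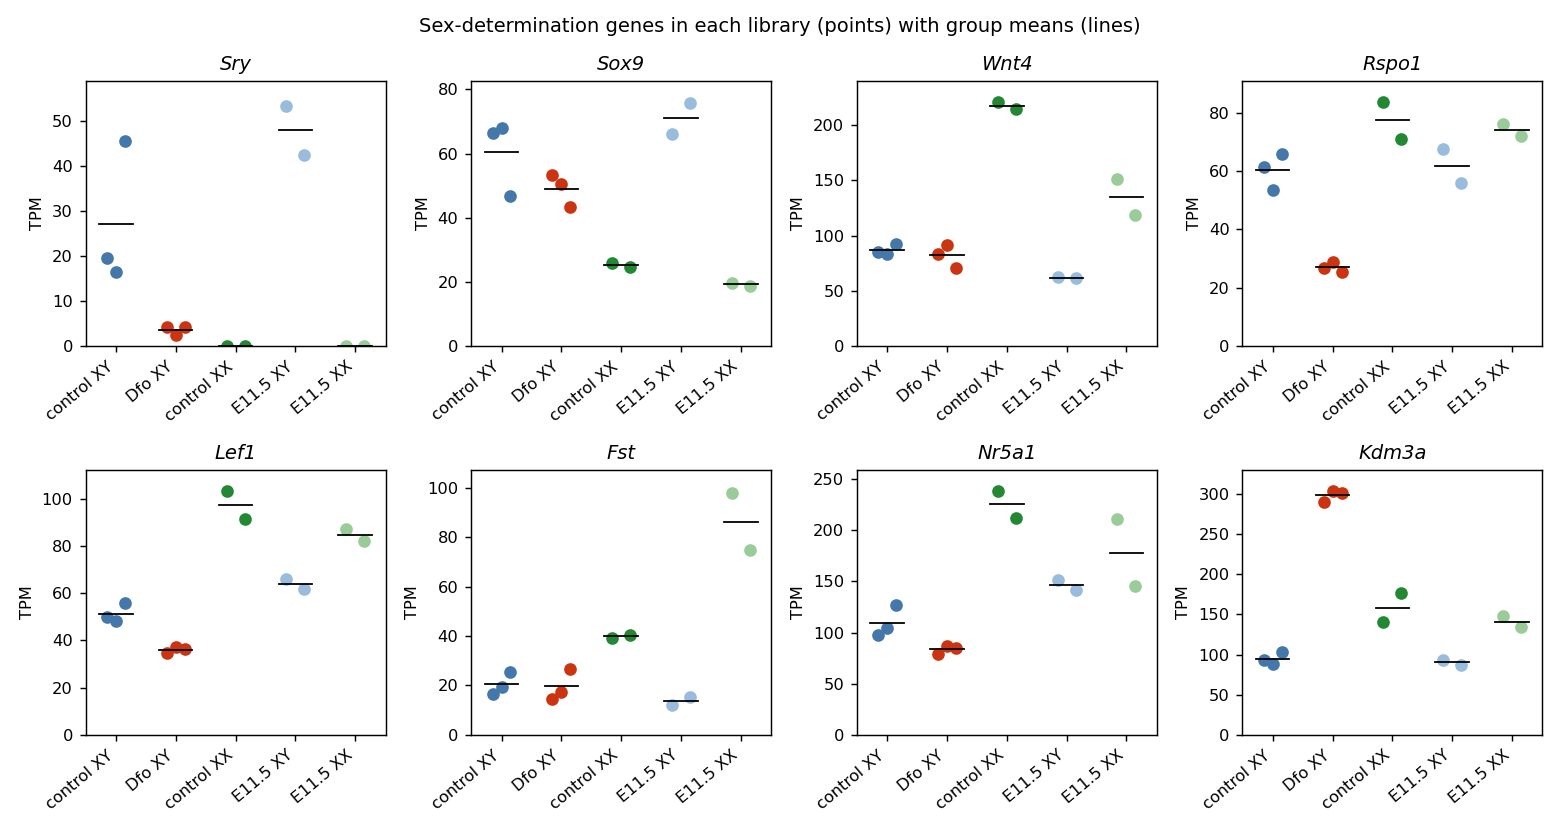
TPM (vertical axis, from 0) of Sry, Sox9, Wnt4, Rspo1, Lef1, Fst, Nr5a1 and Kdm3a in each library (points) of the 5 groups (horizontal axis), with group means as lines. Sox9 of Dfo XY stays above both XX libraries while Wnt4, Rspo1, Lef1 and Nr5a1 stay below them, and Rspo1 and Lef1 are lowest in Dfo XY.

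Genes that differ between the sexes at E11.5 gave a yardstick chosen on a contrast of other libraries, although the fit estimates the spread over all 12. Between E11.5 XY and E11.5 XX, 58 genes were higher (0.419%) and 162 lower (1.17%) in XY (41, or 0.296%, and 120, or 0.867%, under all 4 scalings), of which 52 and 153 were autosomal. These 205 numbered 42 without E11.5 XX replicate 1. The 52 XY-high genes had, in culture, a median of 0.37 relative to all genes for control XY minus XX and of 0.26 for Dfo XY minus XX, and of -0.15 for Dfo XY minus control XY. For the 153 XX-high genes these medians were -0.26, -0.26 and 0.03. Relative to all genes, both medians of Dfo XY lay on the XY side of XX. As deposited, 6 of the 52 XY-high genes were higher and 14 lower in Dfo XY than in XX, beside 5.81% and 40.9% of all genes. Their median was -0.15, beside -0.41 for all genes. Under all 4 scalings 6 were higher and 2 lower, beside 5.15% and 10.6% of all genes. The relative median of these genes was 0.11 without control XX replicate 1. With no filter on low TPM this relative median was -0.03, the opposite sign. That setting changed the median of all genes and not the differences of the 52 genes, and the XX-high relative median moved to -0.55.

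The mean log2(TPM + 1) of the XY-high genes minus that of the XX-high genes gave 1 number per library. It was -0.95, -0.96 and -0.90 in control XY, -1.17, -1.26 and -1.15 in Dfo XY and -1.72 and -1.73 in XX. The 3 cultured groups did not overlap, and Dfo XY lay between control XY and XX. The E11.5 libraries that chose the genes had -0.00 and -0.07 (XY) and -2.60 and -2.56 (XX).

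The distance between both XY groups shrank without immediate-early genes, whose transcription responds within minutes to stimulation and handling. Of the 153 XX-high genes, 16 are in the immediate-early list, a split made after the data were seen. In Dfo XY minus control XY, 13 of the 16 were higher and 0 lower, and of the other 137 genes 22 were higher and 43 lower. The shares of all genes there were 6.07% higher and 13.1% lower. In Dfo XY minus XX, 5 of the 16 were higher and 2 lower, and of the 137 others 9 were higher and 92 lower, 48 of them under all 4 scalings. All genes had 5.81% higher and 40.9% lower, 10.6% lower under all 4 scalings. With these genes left out the number per library was -0.89, -0.91 and -0.90 in control XY, -1.001, -1.103 and -1.003 in Dfo XY and -1.68 in each XX library. The 58 XX-high genes that differed at least 2-fold at E11.5 had a median of 0.18 relative to all genes in Dfo XY minus XX, the opposite sign to the full list.

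**Figure D3:**
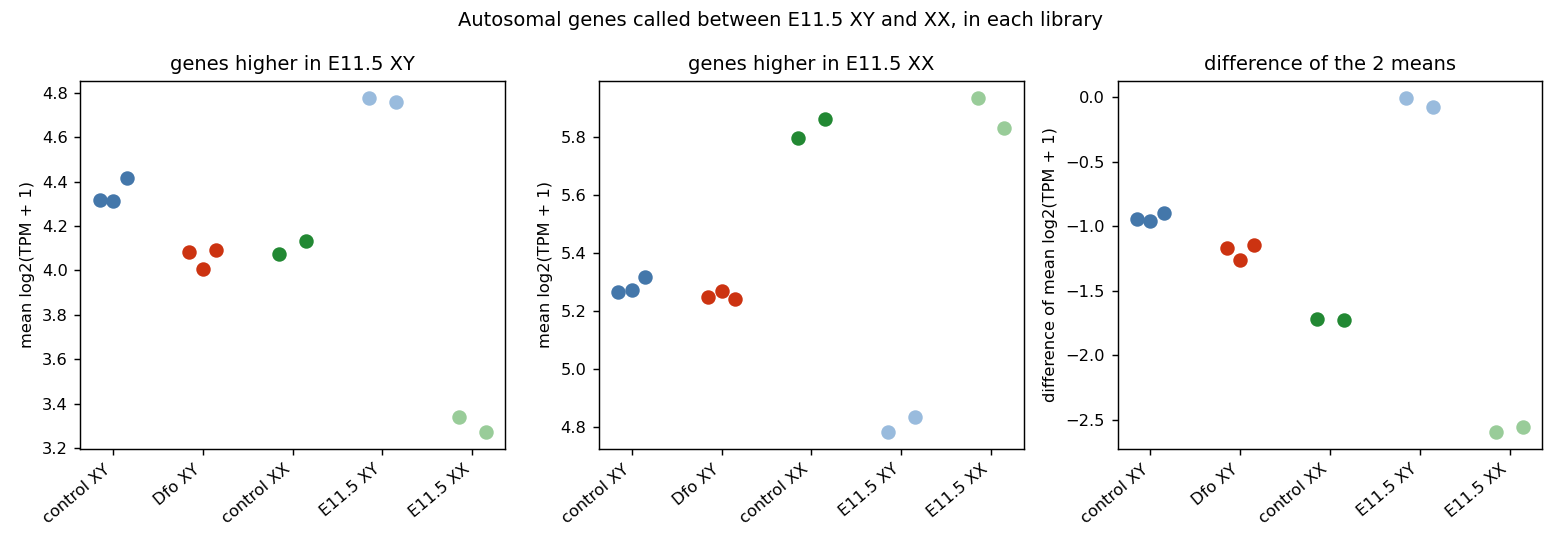
Mean log2(TPM + 1) of the 52 autosomal genes higher in E11.5 XY (left), of the 153 higher in E11.5 XX (middle) and the difference of both means (right) in each library, by group on the horizontal axis. In the values as deposited, Dfo XY libraries reach the XX libraries for the XY-high genes but stay with control XY for the XX-high genes. All genes had a median of -0.41 for Dfo XY minus XX, and relative to it the XY-high median was 0.26. The vertical axes do not start at 0.

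The E11.5 genes with the largest sex differences behaved unevenly in culture. Among the 6 largest on the XY side, Zfp91Cntf, a readthrough transcript, was listed at 0 in both XX libraries and had 4.53, 4.87 and 2.35 TPM in Dfo XY and 8.38, 7.23 and 5.42 TPM in control XY. The other 5, Sst, Man2c1os, Nrn1l, Snhg3 and Lgals4, were not called between Dfo XY and XX (limma, adjusted p = 0.240 to 0.988). Man2c1os was called higher without control XX replicate 2 (1.503; limma, adjusted p = 0.0300) and Snhg3 after median-of-ratios scaling (0.67; limma, adjusted p = 0.0455). Among the 6 largest on the XX side, the immediate-early gene Fos had 245, 248 and 283 TPM in Dfo XY, 104, 126 and 123 TPM in control XY and 281 and 315 TPM in XX. All Dfo XY libraries lay above control XY, and 1 of them lay within the XX range. The difference from XX was not called (log2 -0.21 ± 0.17; limma, adjusted p = 0.342) and changed sign after median-of-ratios scaling (0.28). Fosb was lower as deposited (-0.41) but not after that scaling (0.06), and Nr4a1 was called with a replicate block only (0.69; limma, adjusted p = 0.0108), not otherwise (0.40). Klf4 was higher than in XX (0.88; limma, adjusted p = 0.0220), but its call was lost without both Xist-holding libraries (0.57; limma, adjusted p = 0.336), without control XX replicate 1 (0.39; limma, adjusted p = 0.294), without Dfo XY replicate 1 or 2, and with replicates 1 and 2 averaged (limma, adjusted p = 0.0656 to 0.0755). The interferon-inducible gene Ifi27l2a went the other way from E11.5, with 10.9, 4.66 and 5.78 TPM in Dfo XY, 6.27, 12.6 and 12.4 TPM in control XY and 0 in both XX libraries, against 0 in both XY libraries at E11.5.

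Over all genes, Dfo XY libraries were not nearer to XX than control XY libraries were. The median absolute log2 difference of a library from an XX library was 0.50 to 0.60 for Dfo XY and 0.38 to 0.47 for control XY. After median-of-ratios scaling it was 0.36 to 0.39 and 0.27 to 0.31, and the ranges did not overlap under either scaling. Between both XX libraries it was 0.22. Within Dfo XY it was 0.14 between replicates 1 and 2 and 0.25 and 0.26 between these and replicate 3. Within control XY it was 0.12 between replicates 1 and 2 and 0.23 between each of these and replicate 3.

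Several genes that define gonadal somatic cells were lower in Dfo XY than in XX. Of 20 bipotential gonad genes, 10 were lower and 1 higher and 9 were not called, beside 40.9% of all genes lower. Under all 4 scalings 9 were lower and 1 higher, beside 10.6% and 5.15% of all genes, and the list median was -0.83. Control XY was also lower than XX for 12 of the 20 and higher for 0, with a list median of -0.54. Under all 4 scalings 6 and 0 held, and the shares of all genes lower there were 27.1% and 2.08%. Between Dfo XY and control XY 7 were lower and 4 higher, 3 and 4 under all 4 scalings. Nr5a1 (chromosome 2, 38692656 to 38714542), the nuclear receptor used to select the cells, had 78.9, 86.5 and 84.97 TPM in Dfo XY, 97.2, 104 and 127 TPM in control XY and 239 and 212 TPM in XX. All Dfo XY libraries lay below all control XY libraries, and both XY groups lay below XX. Dfo XY was 2.68-fold below XX (log2 -1.42 ± 0.15; limma, adjusted p = 2.53e-05), and Dfo XY minus control XY was -0.38 ± 0.14 (limma, adjusted p = 0.0676, not called). That difference was called after quantile normalization, with the 8 cultured libraries alone, with a replicate block and without either E11.5 XX replicate (limma, adjusted p = 0.0286 to 0.0478). Podxl, a sialomucin of the coelomic surface and early supporting cells, had 130.5, 143 and 146 TPM in Dfo XY and 494 and 472 TPM in XX (log2 -1.78 ± 0.14). Emx2 (-1.63), Lhx9 (-1.46), Gata4 (-1.30) and Wt1 (-1.16), transcription factors needed to form the gonad, were lower under all 4 scalings. The member higher than in XX was Lmo4 (0.84), named after its values were seen and not called without both Xist-holding libraries. Gata6 was not called (-0.31; limma, adjusted p = 0.0580). The mouse gene Ngfr, the counterpart of the human tag CD271, had 21.8, 20.02 and 15.2 TPM in Dfo XY and 57.04 and 57.2 TPM in XX (log2 -1.55 ± 0.15). Whether reads of the tag were counted there was not tested.

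Among 20 regulators of Sry, 13 were lower in Dfo XY than in XX and 1 was higher, beside 40.9% and 5.81% of all genes. Under all 4 scalings 7 were lower and 1 higher, beside 10.6% and 5.15%, and the list median was -0.77. The lower ones numbered 9 without both Xist-holding libraries. The higher gene was Kdm3a (chromosome 6, 71588972 to 71632990), the iron-dependent demethylase that acts on Sry. It had 290.4, 304 and 301 TPM in Dfo XY, 92.9, 87.7 and 104 TPM in control XY and 140.1 and 176 TPM in XX. The groups did not overlap, with Dfo XY highest and control XY lowest. Dfo XY was 1.89-fold above XX (log2 0.92 ± 0.11; limma, adjusted p = 6.42e-05). Control XY minus XX was -0.73 as deposited, which did not hold under all 4 scalings. Ehmt2, a methyltransferase that writes the mark KDM3A removes, was lower than in XX (-0.98). Of the 20 regulators, 11 were lower and 0 higher in control XY than in XX, 2 and 0 under all 4 scalings. The shares of all genes there were 27.1% and 3.08%, and 2.08% and 1.50% under all 4 scalings. Between Dfo XY and control XY 4 were lower and 4 higher, beside 13.1% and 6.07% of all genes, and 1 and 4 held under all 4 scalings. These are RNA levels, and the activity of the enzymes was not measured.

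The JmjC and TET dioxygenases use iron and oxygen to demethylate histones or DNA. Of 24, 5 were higher and 10 lower, and 5 and 2 held under all 4 scalings. The lower counts are near the 40.9% and 10.6% of all genes, and 7 were lower without both Xist-holding libraries. The 5 were Kdm3a, Kdm4b (0.78), Jmjd6 (1.27), Kdm7a (0.77, outside the naming rule) and the Y-linked Uty. Kdm3a and Kdm4b are also in the list of genes that respond to low oxygen. After median-of-ratios scaling 12 of the 24 were higher and 2 lower.

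Most genes of the response to low oxygen were much higher in Dfo XY than in XX, with the largest median of the 31 lists other than the Y-linked one. Of 40 such genes, 35 were higher and 2 lower in Dfo XY, and 34 and 0 held under all 4 scalings, beside 5.15% and 10.6% of all genes. The list median was 2.37. In control XY minus XX, 0 were higher (2 at an unadjusted p under 0.05, limma) and 7 lower. The 2 lower genes, Pfkfb4 and Zfp395, were named after their values were seen, and neither was called under the other scalings. Without both Xist-holding libraries 34 were higher and 0 lower.

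Slc2a1 (chromosome 4, 119108711 to 119137983), the main glucose transporter, had 612, 631 and 389 TPM in Dfo XY and 46.1 and 41.8 TPM in XX. Its Dfo XY values lay far above both XX libraries and above control XY (43.6, 34.8 and 46.8 TPM), at 11.9-fold the XX level (log2 3.57 ± 0.20; limma, adjusted p = 4.21e-07). P4ha2, a collagen prolyl hydroxylase, had 287, 247 and 268 TPM against 12.4 and 17.4 TPM in XX (log2 4.09 ± 0.22). Egln3, a prolyl hydroxylase that marks HIF for destruction and is itself a HIF target, had 89.1, 88.6 and 57.9 TPM against 4.08 and 4.34 TPM (log2 3.91 ± 0.31). Control XY did not differ by a called amount from XX for these genes (-0.08, 0.00 and 0.40; limma, adjusted p = 0.360 to 0.991), so the separation was between Dfo XY and both controls. Vegfa, the vascular growth factor, was 5.27-fold above XX, Ero1l, an oxidase of the endoplasmic reticulum, 14.4-fold and the glycolysis regulator Pfkfb3 9.58-fold.

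HIF proteins bind a short core, searched here as ACGTG or GCGTG on either strand. The 250 bases before the start of 4 of these genes are shown as examples of windows with a match. Some windows of Kdm3a and Vegfa held 0 matches. They are taken from RefSeq (GRCm38.p6), 5′ to 3′ on the strand of the gene, with matches in capitals (a capital CACGT or CACGC is a match on the opposite strand, and overlapping matches run together). P4ha2 is at chr11:54100674-54100923 (+), Slc2a1 at chr4:119108495-119108744 (+), Pgk1 at chrX:106186850-106187099 (+) and Egln3 at chr12:54203875-54204124 (-).
P4ha2: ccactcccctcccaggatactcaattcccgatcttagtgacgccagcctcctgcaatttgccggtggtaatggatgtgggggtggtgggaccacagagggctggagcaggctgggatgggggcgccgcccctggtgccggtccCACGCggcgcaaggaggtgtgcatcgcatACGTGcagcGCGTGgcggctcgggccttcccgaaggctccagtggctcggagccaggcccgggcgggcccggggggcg
Slc2a1: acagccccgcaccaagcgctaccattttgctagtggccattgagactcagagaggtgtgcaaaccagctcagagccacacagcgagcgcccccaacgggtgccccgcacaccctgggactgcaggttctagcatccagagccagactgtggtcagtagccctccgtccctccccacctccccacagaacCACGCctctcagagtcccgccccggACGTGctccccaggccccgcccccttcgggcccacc
Pgk1: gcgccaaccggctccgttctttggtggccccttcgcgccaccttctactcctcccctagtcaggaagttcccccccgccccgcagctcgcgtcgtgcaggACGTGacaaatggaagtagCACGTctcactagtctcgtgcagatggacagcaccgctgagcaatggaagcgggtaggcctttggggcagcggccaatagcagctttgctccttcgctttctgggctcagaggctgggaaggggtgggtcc
Egln3: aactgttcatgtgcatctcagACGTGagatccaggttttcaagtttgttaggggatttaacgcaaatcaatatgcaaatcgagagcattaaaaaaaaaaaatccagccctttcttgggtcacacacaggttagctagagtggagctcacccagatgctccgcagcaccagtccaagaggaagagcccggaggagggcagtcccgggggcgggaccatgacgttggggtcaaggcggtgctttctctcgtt
The windows hold 3 matches for P4ha2, 2 for Slc2a1, 2 for Pgk1 and 1 for Egln3. A window was found for 31 of the 40 genes, and 28 of these (90.3%) had a match in at least 1 window, beside 6687 of 10995 genes tested (60.8%). At least 2 matches were found for 64.5% of the list and 31.3% of the genes tested. Some genes have several windows. By window the shares were 79.1% of 43 for the list, 54.8% of 14045 for the genes tested and 38.6% of all 32851 windows. Among all genes higher in Dfo XY under all 4 scalings 62.7% had a match, and among those lower 59.0%. A match in letters does not show binding.

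Enzymes of glycolysis, many of them HIF targets, followed the same pattern. Of 17 tested, 15 were higher in Dfo XY than in XX and 1, Pfkm, was lower, beside 5.81% and 40.9% of all genes. The 15 held under all 4 scalings, beside 5.15% of all genes. In control XY minus XX, 0 were higher (1 at an unadjusted p under 0.05, limma) and 7 lower. Pgk1, phosphoglycerate kinase, had 1287, 1237 and 1476 TPM in Dfo XY and 228 and 237 TPM in XX, 5.71-fold apart. Gpi1, glucose phosphate isomerase, was 3.90-fold higher, the lactate exporter gene Slc16a3 5.24-fold and Pfkp, a phosphofructokinase, 7.84-fold.

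**Figure D4:**
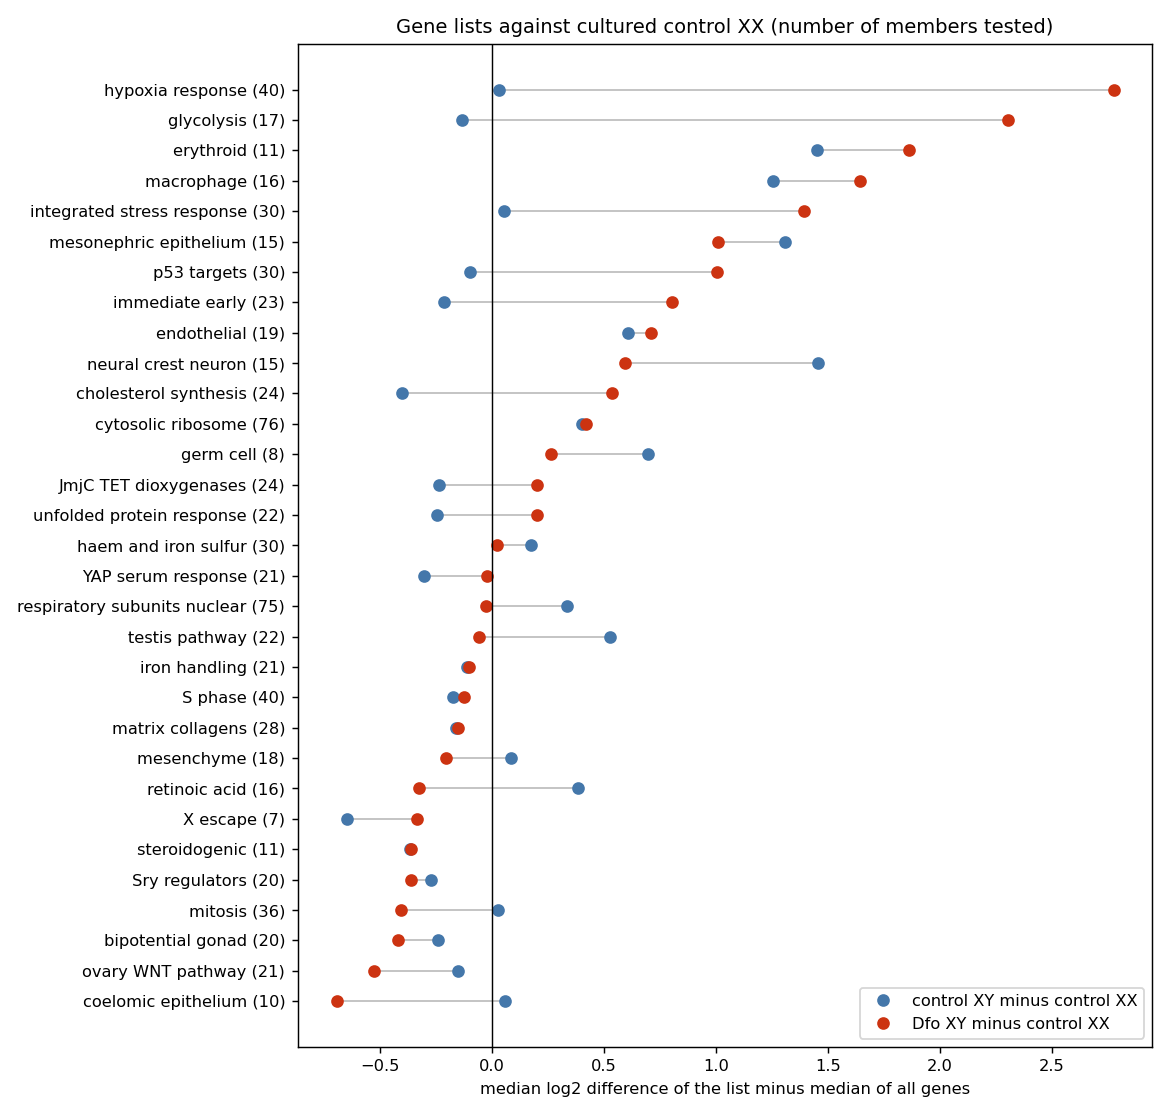
Median log2 difference from control XX of each gene list minus the median of all genes (horizontal axis) for control XY and Dfo XY, with the number of members tested in brackets (vertical axis, Y-linked list left out). Both comparisons share the control XX libraries. The hypoxia, glycolysis and stress lists stand far from control XY, while the erythroid, macrophage and mesonephric lists are high in both.

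Iron-handling genes as a list stood near all genes, with a median of -0.10 relative to them. Of 21, 2 were higher and 10 lower, beside 5.81% and 40.9% of all genes, and 2 and 5 held under all 4 scalings. The counts were 2 and 6 without both Xist-holding libraries. Tfrc (chromosome 16, 32608920 to 32632794), the transferrin receptor whose mRNA is stabilised in iron-poor cells, had 231, 241 and 276 TPM in Dfo XY, 60.2, 56.9 and 84.4 TPM in control XY and 107 and 105 TPM in XX. Dfo XY lay above XX and control XY below it, with 2.34-fold more than XX in Dfo XY (log2 1.22 ± 0.16; limma, adjusted p = 7.97e-05). The haem-degrading oxygenase gene Hmox1 was 2.89-fold above XX. The iron transporter gene Slc11a2 (-1.31) and the iron chaperone gene Pcbp1 (-0.83) were lower. The ferritin genes Fth1 (-0.13) and Ftl1 (-0.06) were not called (limma, adjusted p = 0.436 and 0.715).

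Of 30 genes of haem and iron-sulfur cluster synthesis, 1 was higher and 13 lower, 1 and 4 under all 4 scalings. These are near the shares of all genes (40.9% and 10.6% lower), and the list median was 0.02 relative to all genes. The lower genes numbered 10 without both Xist-holding libraries, 8 without Dfo XY replicate 1 and 7 without control XX replicate 1. Cpox was the higher gene (0.9996), and Alad (-1.15), of haem synthesis, and the iron-sulfur gene Glrx5 (-0.99) were lower. Between Dfo XY and control XY 9 of the 30 were lower and 2 higher, 7 and 2 under all 4 scalings. The shares of all genes there were 13.1% and 6.07%, and 6.93% and 6.05% under all 4 scalings. Of 75 nuclear-encoded respiratory subunits, 37 were lower in Dfo XY than in XX, near the 40.9% of all genes, and 2 (Ndufv3 and Cox7c) higher. Under all 4 scalings 7 were lower and 2 higher. Neither higher call was made without control XX replicate 1 or without both Xist-holding libraries, where 27 were lower. Between Dfo XY and control XY 33 of the 75 were lower and 0 higher, 15 and 0 under all 4 scalings, beside the shares given above. In control XY minus XX, 9 were lower and 4 higher, beside 27.1% and 3.08% of all genes. Ndufs1, an iron-sulfur subunit of complex I, had 53.4, 54.8 and 51.7 TPM in Dfo XY and 127 and 105 TPM in XX (log2 -1.11 ± 0.12), and the iron-sulfur subunit gene Sdhb of complex II was -0.89.

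Many stress-response genes were higher in Dfo XY than in XX. The shares of all genes were 5.81% higher and 40.9% lower, and 5.15% and 10.6% under all 4 scalings. Of 30 genes of the integrated stress response, which slows translation when nutrients or protein folding fail, 20 were higher and 3 lower, 20 and 0 under all 4 scalings, and 14 and 2 without both Xist-holding libraries. Trib3, a target and brake of this response, had 90.1, 105 and 64.8 TPM in Dfo XY against 5.89 and 4.03 TPM in XX. Atf3 was 6.75-fold higher, Ddit3 6.59-fold, Ppp1r15a 2.93-fold and Atf4, the transcription factor at its centre, 2.72-fold. In control XY minus XX, 0 of the 30 were higher (0 also at an unadjusted p under 0.05, limma) and 5 lower. Of 30 p53 targets 15 were higher and 7 lower, 14 and 1 under all 4 scalings, with Gadd45a 3.79-fold and Plk2 2.20-fold above XX. These were 14 and 2 without both Xist-holding libraries, and without control XX replicate 2, 4 were lower.

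For the unfolded protein response the balance turned with the scaling. Of 22 genes, 3 were higher and 9 lower as deposited, beside 5.81% and 40.9% of all genes. The counts were 9 and 2 after median-of-ratios scaling, 8 and 2 after quantile normalization, and 3 and 2 under all 4 scalings, the last beside 5.15% and 10.6%. Against control XY, 11 were higher in Dfo XY under all 4 scalings, beside 6.05% of all genes. Relative to XX, the ubiquitin-pathway gene Herpud1 was 3.57-fold higher, while the calcium-binding chaperone gene Calr (-1.03) and the chaperone gene Hyou1 (-0.91) were lower. Without both Xist-holding libraries 1 was higher and 6 lower. The higher genes (Herpud1, Dnajb9 and Xbp1) numbered 1 without Dfo XY replicate 2 and 1 without control XX replicate 1, where 5 were lower.

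Immediate-early genes were higher in part. Of 23 tested 9 were higher and 2 (Fosb and Cyr61) lower, beside 5.81% and 40.9% of all genes. Under all 4 scalings the counts were 9 and 0, beside 5.15% and 10.6%. They were 7 and 0 without both Xist-holding libraries. Ier3 had 96.1, 91.7 and 68.3 TPM in Dfo XY and 4.65 and 5.59 TPM in XX, Junb was 3.15-fold above XX and Myc 3.11-fold. In control XY minus XX, 0 of the 23 were higher (0 also at an unadjusted p under 0.05, limma) and 8 lower.

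Cholesterol synthesis genes stood near the XX level in Dfo XY, where control XY lay below it. In control XY minus XX, 21 of 24 were lower and 0 higher (0 also at an unadjusted p under 0.05, limma), 7 and 0 under all 4 scalings. The lower shares of all genes there were 27.1% and 2.08%. In Dfo XY minus XX, 3 were lower and 4 higher, beside 40.9% and 5.81% of all genes, and 0 and 4 held under all 4 scalings. In Dfo XY minus control XY 17 were higher and 0 lower, the 17 under all 4 scalings, beside 6.05% of all genes. Cyp51, a sterol demethylase of this pathway, had 264, 284 and 275 TPM in Dfo XY, 111, 110.3 and 125 TPM in control XY and 217 and 219 TPM in XX. It was lowest in control XY and slightly above XX in Dfo XY (log2 0.33 ± 0.09; limma, adjusted p = 0.0109). Higher than XX were Cyp51, Lss, Fdps and Pmvk, of which 2 were called without control XY replicate 1 or 2, 1 without Dfo XY replicate 2 or either control XX replicate, and 0 without both Xist-holding libraries. After median-of-ratios scaling 14 were higher than XX and 0 lower.

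Some retinoic acid genes were lower in Dfo XY than in both controls. Retinoic acid, made from vitamin A by the ALDH1A enzymes, starts meiosis in ovarian germ cells. Of 16 genes tested, 11 were lower than in XX, 5 of them under all 4 scalings, beside 40.9% and 10.6% of all genes. Against control XY 6 were lower, all 6 under all 4 scalings, beside 13.1% and 6.93% of all genes. Aldh1a1 (chromosome 19, 20492715 to 20643465) had 16.6, 17.4 and 4.06 TPM in Dfo XY, 31.8, 36.5 and 39.04 TPM in control XY and 100.3 and 104 TPM in XX. The groups did not overlap, and Dfo XY was 8.76-fold below XX (log2 -3.13 ± 0.41; limma, adjusted p = 0.000105). Crabp2, which carries retinoic acid to its receptors, had 24.7, 19.5 and 15.97 TPM in Dfo XY against 101, 91.2 and 72.5 TPM in control XY and 82.8 and 64.2 TPM in XX. For Crabp2 both controls stood together and Dfo XY lay 3.56-fold below XX. Aldh1a2 (-1.40), which makes retinoic acid, was also lower.

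Steroid-producing cells share their origin with NR5A1(+) gonadal cells. Of 11 steroidogenic genes, 6 were lower and 1 higher, beside 40.9% and 5.81% of all genes, and 2 and 1 held under all 4 scalings. Cyp11a1, which makes pregnenolone from cholesterol, had 19.1, 22.9 and 8.62 TPM in Dfo XY, 40.98, 45.9 and 28.2 TPM in control XY and 92.9 and 66.2 TPM in XX, with no overlap between groups (log2 -2.25 ± 0.35). Fdxr, which supplies its electrons, was lower (-1.77), and Fdx1, the iron-sulfur protein between them, was higher (0.997), though not called without both Xist-holding libraries (0.66).

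Of matrix, contractile and proliferation genes, the mitosis genes stood furthest below all genes (a list median of -0.41 relative to them, against -0.15, -0.02 and -0.12 for matrix, contractile and S-phase genes). Of 28 matrix and collagen genes 19 were lower, 7 under all 4 scalings, beside 40.9% and 10.6% of all genes, with the laminin gene Lama1 (-1.60), the collagen gene Col1a1 (-1.51) and the periostin gene Postn (-1.50). The count was 12 without both Xist-holding libraries and also without control XX replicate 2. Of 21 targets of YAP and serum response factor, 9 were lower and 1, Ctgf (1.27), was higher, 4 and 1 under all 4 scalings, near the 40.9% lower of all genes. The lower genes numbered 5 without both Xist-holding libraries and 14 without Dfo XY replicate 3, and Ctgf was not called without control XX replicate 1. Myl9, a myosin light chain, had 40.7, 45.3 and 35.6 TPM in Dfo XY and 143 and 162 TPM in XX. Of 36 mitosis genes 29 were lower and 10 held under all 4 scalings, beside 40.9% and 10.6% of all genes. The lower ones numbered 13 without both Xist-holding libraries. Cenpf, a kinetochore protein of dividing cells, had 19.7, 19.1 and 25.1 TPM in Dfo XY and 73.2 and 76.2 TPM in XX (log2 -1.77 ± 0.17), and Plk1 was -1.10. Of 40 S-phase genes 21 were lower, a share somewhat above that of all genes, 3 under all 4 scalings, a share below it, 5 without both Xist-holding libraries and 13 without control XX replicate 1. Of 76 ribosomal protein genes 11 were higher and 6 lower, beside 5.81% and 40.9% of all genes, and 11 and 0 held under all 4 scalings. However, 55 were higher after median-of-ratios scaling and 1 without both Xist-holding libraries, 4 without control XX replicate 1 and 5 without control XX replicate 2. The 6 lower calls fell to 0 or 1 without any 1 of Dfo XY replicates 1 and 2 and both control XX replicates. These genes have many near-identical pseudogenes, so their values are uncertain. In control XY minus XX, 15 matrix, 11 contractile, 9 mitosis and 17 S-phase genes were lower and 0 higher, beside 27.1% and 3.08% of all genes. In Dfo XY minus control XY, 18 mitosis genes were lower and 0 higher, 15 and 0 under all 4 scalings. Lower and higher genes there numbered 8 and 2 for matrix, 2 and 5 for contractile and 1 and 1 for S-phase genes. The shares of all genes there were 13.1% and 6.07%, and 6.93% and 6.05% under all 4 scalings.

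The named genes with the largest differences were a mixed set. Apart from P4ha2 and Egln3, the 8 largest increases included Cox4i2, a subunit of cytochrome c oxidase used in low oxygen, with 30.2, 45.8 and 26.3 TPM in Dfo XY, 2.50, 1.66 and 7.02 TPM in control XY and 0 in both XX libraries. Sprr1a, an epithelial envelope protein, had 148, 167 and 50.2 TPM against 5.36 and 5.42 TPM in XX (log2 4.09 ± 0.43). The interferon-induced gene Ifit3 had 16.6, 7.64 and 21.6 TPM and was listed at 0 in XX. The 2 small nucleolar RNAs of the set rest on unsteady values. Snora23 was listed at 0 and 98.4 TPM in the XX libraries, and its call was lost without control XX replicate 1 (2.29; limma, adjusted p = 0.0965) or both Xist-holding libraries. Snora74a was listed at 0 in both XX libraries and its call (limma, adjusted p = 0.0494) did not hold under the other scalings. The haemoglobin gene Hba-a1 is described with the blood markers below.

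Among the 8 largest decreases besides Aldh1a1, Smpdl3b, a membrane phosphodiesterase, had 5.70, 6.50 and 2.75 TPM in Dfo XY, 11.3, 13.9 and 17.4 TPM in control XY and 39.9 and 40.9 TPM in XX, with no overlap (log2 -2.85 ± 0.29; limma, adjusted p = 1.81e-05). Ibsp, a bone matrix sialoprotein, had 2.10, 3.37 and 0.580 TPM in Dfo XY against 4.61, 2.82 and 6.89 TPM in control XY and 23.1 and 23.8 TPM in XX. Smim24 was listed at 0 in the 3 Dfo XY libraries and at 6.54 and 13.9 TPM in XX. The lens crystallin gene Cryge (-3.03), the antisense transcript Abhd11os (-2.98) and Tsacc (-3.22) were also lower, the last not without control XX replicate 1 (limma, adjusted p = 0.0579). Amd1 was listed at 0, 0.0100 and 0 TPM in Dfo XY, 0, 25.8 and 0 TPM in control XY and 65.7 and 29.5 TPM in XX. It has a near-identical copy in the mouse genome, so its values are uncertain, and its call was lost without control XX replicate 1 (-4.93; limma, adjusted p = 0.0701) or both Xist-holding libraries.

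Genes of the Y chromosome followed the labelled sex. All 5 Y-linked genes tested, Ddx3y, Eif2s3y, Kdm5d, Uty and Sry, were higher in Dfo XY than in XX, where the highest value was 0.06 TPM. Among these, Sry was called between Dfo XY and control XY and the other 4 were not. Of 7 genes that escape X inactivation, Xist included, 6 were lower than in XX, 2 under all 4 scalings, beside 40.9% and 10.6% of all genes. Eif2s3x had 86.5, 87.3 and 96.5 TPM in Dfo XY and 191 and 207 TPM in XX (log2 -1.14 ± 0.12). Kdm6a, an X-linked histone demethylase with an escaping second copy in XX cells, had 31.7, 36.9 and 32.03 TPM in Dfo XY, 22.2, 21.4 and 19.9 TPM in control XY and 45.3 and 44.5 TPM in XX. It lay between both controls. Its difference from XX (-0.41 ± 0.13; limma, adjusted p = 0.0209) changed sign after median-of-ratios scaling (0.06) and was not called without both Xist-holding libraries, Dfo XY replicate 1 or either control XX replicate. Kdm6a was higher than in control XY (0.64 ± 0.12; limma, adjusted p = 0.00274), though not without both Xist-holding libraries (0.58; limma, adjusted p = 0.0758). All 497 X-linked genes tested had a median of -0.52, beside -0.40 for the 13314 autosomal genes. Under all 4 scalings 11 were higher and 65 lower, beside 5.15% and 10.6% of all genes.

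Markers of other cells in the dissected tissue also differed between Dfo XY and XX, and their part in the results above was not tested. Of 16 macrophage markers 10 were higher, 8 under all 4 scalings, beside 5.81% and 5.15% of all genes. Their summed level was 148 to 225 TPM in Dfo XY, 106 to 203 TPM in control XY and 62.5 and 86.7 TPM in XX. Tyrobp, a signalling adaptor of myeloid cells, had 15.5, 11.54 and 10.03 TPM in Dfo XY, 27.3, 11.2 and 5.71 TPM in control XY and 0 in both XX libraries. The higher markers numbered 5 without both Xist-holding libraries, 6 without Dfo XY replicate 1 or 3 and 5 without control XX replicate 1. Of 11 erythroid markers 6 were higher, 5 under all 4 scalings, beside the same shares of all genes. Their summed levels were 3236, 2360 and 1394 TPM in Dfo XY, 2219, 2553 and 333 TPM in control XY and 273 and 245 TPM in XX. Without both Xist-holding libraries 2 were higher. Hba-a1 had 1435, 1039 and 347 TPM in Dfo XY, 939, 1056 and 126 TPM in control XY and 21.6 and 19.4 TPM in XX, and its near-identical copy Hba-a2 makes its value uncertain. Between Dfo XY and control XY 0 macrophage and 0 erythroid markers were called by limma (1 of each, higher in Dfo XY, at an unadjusted p under 0.05).

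For the lists that follow, the shares of all genes were 5.81% higher and 40.9% lower in Dfo XY than in XX. Under all 4 scalings they were 5.15% and 10.6%. Of 19 endothelial markers 4 (Flt1, Esam, Erg and Icam2) were higher and 1, Ramp2, lower, and without control XX replicate 1 or both Xist-holding libraries 1 was higher. Flt1, a VEGF receptor, had 14.2, 15.1 and 9.43 TPM in Dfo XY and 3.25 and 4.06 TPM in XX, and the summed level was 176 to 296 TPM in Dfo XY and 189 and 218 TPM in XX. Of 15 mesonephric markers 4 were higher, Cdh16, Epcam, Wfdc2 and Cldn7, and 2 lower, Emx2 and Pax2. The higher ones numbered 2 without Dfo XY replicate 2 or control XX replicate 2 and 0 without both Xist-holding libraries, and the summed level was 312 to 407 TPM in Dfo XY and 474 and 491 TPM in XX. Of 15 neural crest and neuron markers, Th (3.33) and Dbh (1.24), enzymes of catecholamine synthesis, were higher and Ngfr lower, with a summed level of 174 to 205 TPM in Dfo XY and 157 and 191 TPM in XX. Of 10 coelomic epithelium markers 6 were lower, 5 under all 4 scalings, with a summed level of 405 to 502 TPM in Dfo XY and 917 and 975 TPM in XX. Upk3b, a marker of this epithelium, had 17.6, 15.9 and 18.4 TPM in Dfo XY and 72.9 and 85.04 TPM in XX. Of 18 mesenchyme markers 12 were lower, 5 under all 4 scalings and 7 without both Xist-holding libraries or without control XX replicate 1, with a summed level of 985 to 1158 TPM in Dfo XY and 1841 and 1951 TPM in XX. Of 8 germ cell markers tested 1, Ifitm1, was lower (-1.77), and the defining germ cell genes Ddx4 and Dazl were at most 0.80 TPM in these 5 libraries. In control XY minus XX, 10 neural crest and neuron and 9 mesonephric markers were higher and 1 of each lower, beside 3.08% and 27.1% of all genes. In Dfo XY minus control XY, 5 of each of these were lower, with 1 and 0 higher. Of the coelomic epithelium and mesenchyme markers 6 and 8 were lower there and 0 higher. The shares of all genes there were 13.1% lower and 6.07% higher.

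**Figure D5:**
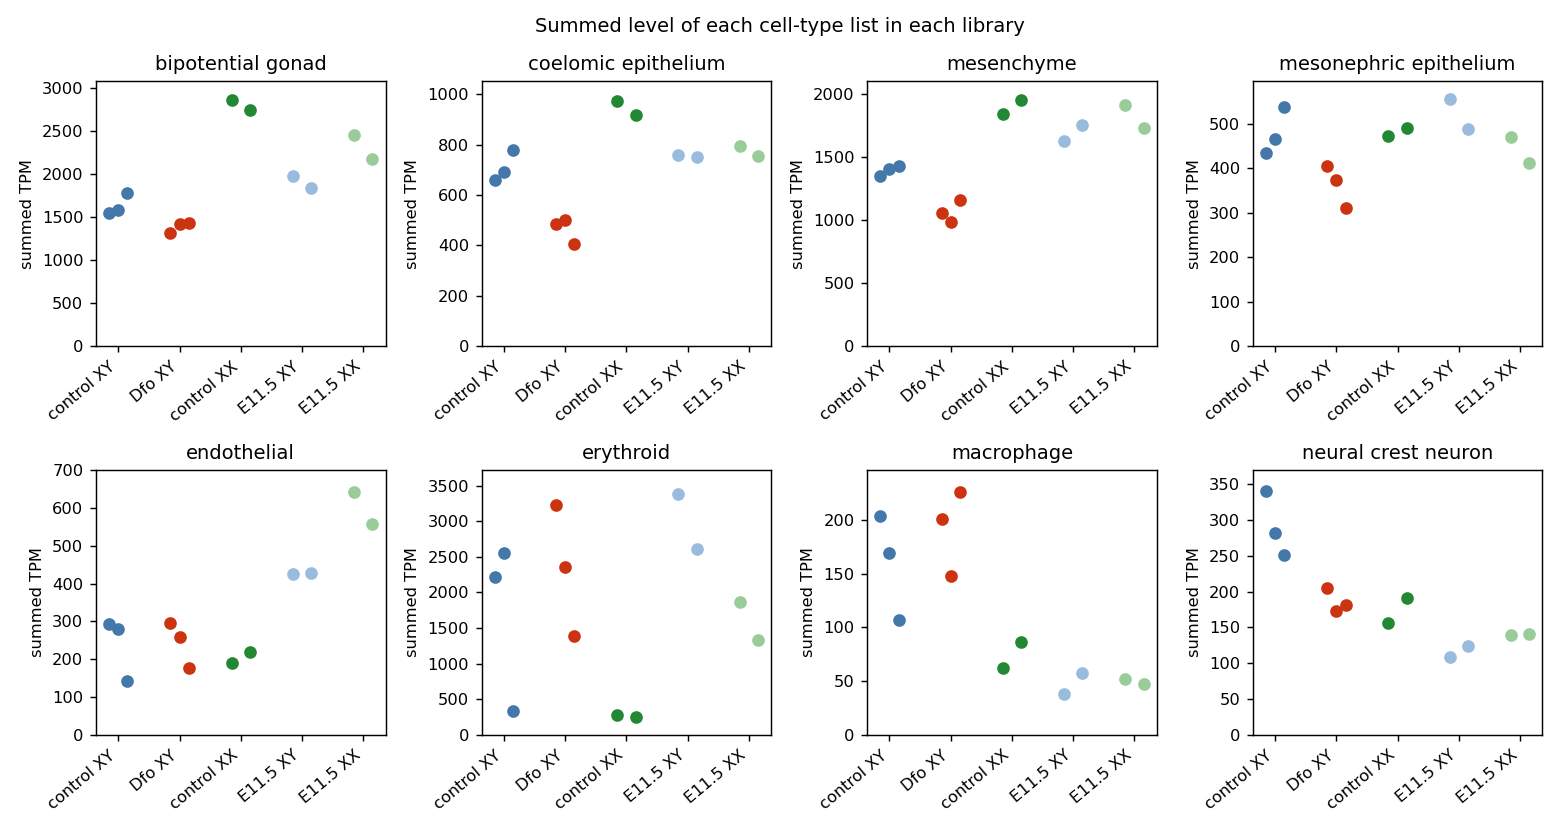
Summed TPM (vertical axis, from 0) of the markers of 8 cell types or lineages in each library (points), by group on the horizontal axis. The macrophage and erythroid sums of Dfo XY lie above both control XX libraries, and the bipotential gonad, coelomic epithelium and mesenchyme sums lie below them.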

How the data were processed

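RNA of NR5A1(+) cells from 12 mouse gonad samples was sequenced with the SMART-Seq Stranded Kit, per the labels' protocols. The authors deposited 1 table of TPM (transcripts scaled to the same total) per library, made with STAR 2.7.10b, RSEM (version not given in the sources used here) and R 4.1.2 on mm10, per the submitters' processing notes. TPM keeps no depth, so no count test and no counting interval can be given. Groups were taken from the sample titles. All 24411 symbols were read from every table, and 13847 genes with at least 1 TPM in at least 2 of the 5 libraries of Dfo XY and control XX were tested. Log2(TPM + 1) of the 12 libraries was fitted in 1 model with limma 3.58.1 (R 4.3.3), with 1 mean per group and a mean-variance trend, and p-values were adjusted by Benjamini-Hochberg over the 13847 genes. Fold changes are on that scale and understate the change of low genes. The fit was repeated after median-of-ratios scaling, after quantile normalization and with Rpph1 left out and TPM rescaled.

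Named genes are the 8 largest called changes in each direction (among genes averaging at least 5 TPM in 1 of the groups, whose libraries do not overlap, no predicted-gene symbols, Y-linked genes or Xist), the 6 largest in each direction at E11.5 by like rules, up to 4 called members of each list by smallest adjusted p, and a set of sex-determining and iron genes. The 32 gene lists and their members were chosen with earlier results of these data known, and genes outside the rule were named after their values were seen. Positions are those of GENCODE M21 (mm10), which matched 13326 of the genes tested. Promoter windows are from RefSeq (GRCm38.p6). Each gene with a window was searched in the 250 bases before its starts, which covered 10995 of the genes tested. The fit was tested on simulated data. Alternatives were other pseudocounts (0.1 and 0.5), filters, scalings and sets of libraries, each library left out in turn, both Xist-holding libraries left out, replicates 1 and 2 of both XY cultures averaged, a replicate block, robust limma, and the E11.5 lists with X-linked genes kept, at least 2-fold, or without immediate-early genes, the last chosen after seeing the data. Some results are not reported here.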

Additional observations from a re-analysis of the deposited data

How the results depend on the processing

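The number of genes called between Dfo XY and control XX was 6468 (804 higher, 5664 lower). It was 3351 (1862 and 1489) after median-of-ratios scaling, 3150 (1478 and 1672) after quantile normalization and 3137 (383 and 2754) without both Xist-holding libraries, and with Rpph1 left out 3196 were lower. Leaving out 1 library at a time gave 4826 to 6688 calls, 534 to 861 higher and 4283 to 5828 lower. Between control XY and control XX the 4183 calls became 1125, 685 and 2134 under the 3 scalings in the same order and 2007 with replicates 1 and 2 averaged, and leaving out 1 library gave 2254 (control XX replicate 1) to 4473. Between Dfo XY and control XY the 2649 calls became 941 without both Xist-holding libraries and 939 with replicates averaged, and 1619 (without Dfo XY replicate 2) to 2766 with 1 library left out. The 205 autosomal genes of E11.5 became 537 with no filter, 350 with the filter over all 12 libraries, 67 without both Xist-holding libraries, 55 with replicates averaged, and 42 to 269 with 1 library left out. Relative to all genes, the median of the XY-high genes in Dfo XY minus XX was -0.029 with no filter, 0.18 with the filter over 12 libraries and 0.39 for genes at least 2-fold apart, with 0.11 to 0.29 on leaving out 1 library. For the XX-high genes it was -0.55 and -0.34 under those filters, -0.19 at a minimum of 5 TPM, -0.17 after quantile normalization, -0.33 without both Xist-holding libraries and 0.18 for genes at least 2-fold apart, with -0.28 to -0.21 on leaving out 1 library. In control XY minus XX the XY-high median was 0.40 and 0.38 with pseudocounts of 0.1 and 0.5, 0.10 with no filter, 0.29 with the filter over 12 libraries, 0.41 after quantile normalization, 0.40 with replicates averaged and 0.57 for genes at least 2-fold apart (0.34 to 0.49 on leaving out 1 library). The XX-high median there was -0.53 with no filter, -0.34 with the filter over 12 libraries and -0.16 after quantile normalization (-0.27 to -0.21). In Dfo XY minus control XY the XY-high median was -0.21 without both Xist-holding libraries and -0.26 for genes at least 2-fold apart (-0.21 to -0.10). The XX-high median there was near 0 and changed sign, at -0.028 after quantile normalization, -0.0045 without both Xist-holding libraries, -0.0097 with replicates averaged and -0.044 without immediate-early genes, with 0.34 for genes at least 2-fold apart and -0.027 to 0.052 on leaving out 1 library. Of the genes named, some changed sign in Dfo XY minus XX. Fos was 0.28, 0.19 and 0.048 after median-of-ratios scaling, after quantile normalization and with Rpph1 left out, Fosb was 0.065 and 0.039 and Kdm6a 0.057 and 0.049 after the first 2, and Nr4a1 was -0.14 without both Xist-holding libraries. On leaving out 1 library, Sst ranged from -0.40 (Dfo XY replicate 3; -0.31 for control XX replicate 1) to 0.38, Man2c1os from -0.38 to 1.503, Snhg3 from -0.080 to 0.50 and Lgals4 from -0.19 to 0.70, the lowest for Man2c1os without control XX replicate 1 and for the other 2 without control XX replicate 2. In Dfo XY minus control XY, Wnt4 was 0.056 after median-of-ratios scaling and -0.18 to 0.0097 on leaving out 1 library. Fst there was 0.060 and 0.041 after median-of-ratios scaling and quantile normalization, 0.39 without both Xist-holding libraries, and -0.32 to 0.096 on leaving out 1 library (0.080 where that was control XY replicate 3). The cause of these shifts was not tested. Of 158 results on single genes, 158 kept their direction and call with either other pseudocount, 130 without both Xist-holding libraries and 138 after median-of-ratios scaling.

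Whether the replicate numbers pair Dfo XY libraries with control libraries could not be decided from these values. With 2 or 3 libraries per group, the deviations from a group mean are tied to each other. Deviations of same-numbered Dfo XY and control XY libraries from their group means correlated with r = 0.16, 0.09 and 0.28, and those of Dfo XY and control XX with r = 0.01 and 0.04. Among control XY libraries, Dfo XY replicates 1 and 3 correlated best with their own number, and Dfo XY replicate 2 with replicate 1 (r = 0.10). Replicates 1 and 2 stood together in both XY groups. Dfo XY replicates 1 and 2 had r = 0.09 to 0.16 with control XY replicates 1 and 2, and -0.22 and -0.14 with replicate 3. Dfo XY replicate 3 had r = -0.20 and -0.19 with control XY replicates 1 and 2. Whether replicates 1 and 2 shared a batch was not tested. With a replicate block, 843 genes were higher and 6188 lower in Dfo XY than in XX, 6177 genes were called with and without the block, 425 autosomal genes were called at E11.5, and Sst was -0.095. The files give no depth, so whether low genes were missed for lack of reads cannot be seen. With 2 control XX libraries, either of them can decide a call.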
